A study of Mus musculus with 7 samples.

Results

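Expression of 8 genes that tie mitochondria to oxygen supply was followed in the atrioventricular canal, the narrow segment of the embryonic heart tube where the valves begin to form. The genes were Ndufa4l2, Cox4i1, Cox4i2, Higd1a, Bnip3, Bnip3l, Fundc1 and Pdk1, out of 23284 gene symbols counted. They were chosen from a set of mitochondrial genes known for their link to low oxygen, with the difference between Hand2 null and wild-type libraries already in view, so that difference is described for them, and the test over all genes serves only to count them beside the share of all genes called. They lie on chromosomes 10 (Ndufa4l2), 8 (Cox4i1), 2 (Cox4i2 and Pdk1), 9 (Higd1a), 7 (Bnip3), 14 (Bnip3l) and X (Fundc1). All 8 passed the filter on low counts.

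Each library held RNA of 4 pooled canals, dissected by hand from outbred NMRI mouse embryos of 18 to 23 somites. The sample titles name day 9.5, while the labels place the embryos slightly earlier, just past day 9.0. The null embryos carried the Hand2 d/d allele, in which the coding part of the gene was deleted in the germline, so every cell of the embryo lacked it. Of 4 pools planned per genotype, 4 null (replicates 1 to 4) and 3 wild-type pools (replicates 2 to 4) were sequenced, since the RNA of the remaining pool was of lower quality. Pools were matched for somite stage and sex ratio, and no other treatment or allele is named in the labels. Hand2 itself was counted 7 to 26 times in the null and 1194 to 2123 times in wild-type libraries. Heart muscle markers were abundant in every library (summed level of 10 genes 32570 to 38690 CPM, reads scaled to equal library totals, in the null and 31200 to 35610 CPM in wild type). In such bulk tissue, fewer cells of a type and less RNA per cell cannot be told apart. Total reads in genes were 27905601 to 44860753 per library. The largest fraction outside annotated genes was that of null replicate 2 (14.21%), and the largest haemoglobin fraction that of wild-type replicate 4 (2.18%).

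As background, mitochondria of cells short of oxygen are rebuilt in several ways. Cytochrome c oxidase, the last enzyme of the respiratory chain, can exchange the COX4I1 form of its subunit 4 for COX4I2, and NDUFA4L2 is an inducible relative of the oxidase subunit NDUFA4. BNIP3, BNIP3L (also called NIX) and FUNDC1 sit in the outer mitochondrial membrane and bind the LC3 proteins of the autophagosome, which leads the organelle to degradation (mitophagy). PDK1 phosphorylates and so slows pyruvate dehydrogenase, the enzyme that lets pyruvate into the citric acid cycle, and HIGD1A is a small inner-membrane protein that binds the oxidase. Most of these genes are known targets of the hypoxia-inducible factors (HIF), which bind the core sequences ACGTG and GCGTG.

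Windows before an annotated start were at hand for 4 of the 8 genes in the RefSeq promoter table of build GRCm38.p6. The 250 bases before the annotated start are shown for these 4, 5′ to 3′ in the sense of the gene, because they let the HIF core sequences be set beside the values. Capitals mark each match to ACGTG or GCGTG on either strand. For Pdk1 the first of its annotated starts is shown, and the window before the other start held no match.

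Bnip3, chr7:138909507-138909756, minus strand: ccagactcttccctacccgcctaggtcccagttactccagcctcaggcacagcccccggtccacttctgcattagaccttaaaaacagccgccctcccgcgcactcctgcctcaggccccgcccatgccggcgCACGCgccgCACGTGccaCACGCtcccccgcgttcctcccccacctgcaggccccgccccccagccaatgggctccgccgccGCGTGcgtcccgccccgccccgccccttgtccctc
Pdk1, chr2:71872974-71873223, plus strand: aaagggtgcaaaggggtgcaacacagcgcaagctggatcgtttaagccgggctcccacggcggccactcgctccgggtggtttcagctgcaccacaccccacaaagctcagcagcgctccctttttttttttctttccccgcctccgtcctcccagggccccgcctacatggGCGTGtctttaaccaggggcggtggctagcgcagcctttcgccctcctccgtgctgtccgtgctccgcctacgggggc
Higd1a, chr9:121857797-121858046, minus strand: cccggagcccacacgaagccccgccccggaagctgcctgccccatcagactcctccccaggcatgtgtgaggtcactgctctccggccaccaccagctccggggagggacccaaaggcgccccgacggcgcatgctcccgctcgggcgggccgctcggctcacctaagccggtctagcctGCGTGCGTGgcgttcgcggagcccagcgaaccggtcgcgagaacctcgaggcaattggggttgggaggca
Fundc1, chrX:17572008-17572257, minus strand: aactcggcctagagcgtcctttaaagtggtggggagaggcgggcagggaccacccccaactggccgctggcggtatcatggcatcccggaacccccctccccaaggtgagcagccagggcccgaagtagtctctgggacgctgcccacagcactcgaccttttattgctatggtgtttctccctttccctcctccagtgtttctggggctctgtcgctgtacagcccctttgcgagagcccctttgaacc

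The Bnip3 window held a single palindrome that reads ACGTG on both strands (108 and 107 bases before the start) and 3 matches to GCGTG that began 117, 99 and 35 bases before it. The Pdk1 window held 1 match to GCGTG, 78 bases before the start. In the Higd1a window 2 overlapping matches to GCGTG began 70 and 66 bases before the start. The Fundc1 window held neither sequence. It includes a stretch that reads as the first codons of FUNDC1 (MASRNPPPQ), so this annotated start may lie inside the gene. Sequence before an earlier Fundc1 start was not searched. Among 32851 windows of the same length in the table, 16.6% held ACGTG, 28.2% held GCGTG and 38.6% held either, so a match is common and describes the letters alone.

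By the test over all genes, 5 of the 8 were called higher in the null and 0 lower (edgeR quasi-likelihood test, Benjamini-Hochberg adjusted p under 0.05). None was lower at an unadjusted p under 0.05 or with DESeq2 either (0 and 0). Over the 14290 genes tested, 4.11% were called higher and 2.13% lower. In 6 of the 8 genes every null library lay above every wild-type library, a pattern seen in 11.6% of the tested genes (10.3% had every null library below). The median log2 difference (log2 of null over wild type, as edgeR fitted it) of the 8 genes was 0.80, against 0.02 over all tested genes. Nothing is read from these counts, since the genes were chosen with them known.

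**Figure D1:**
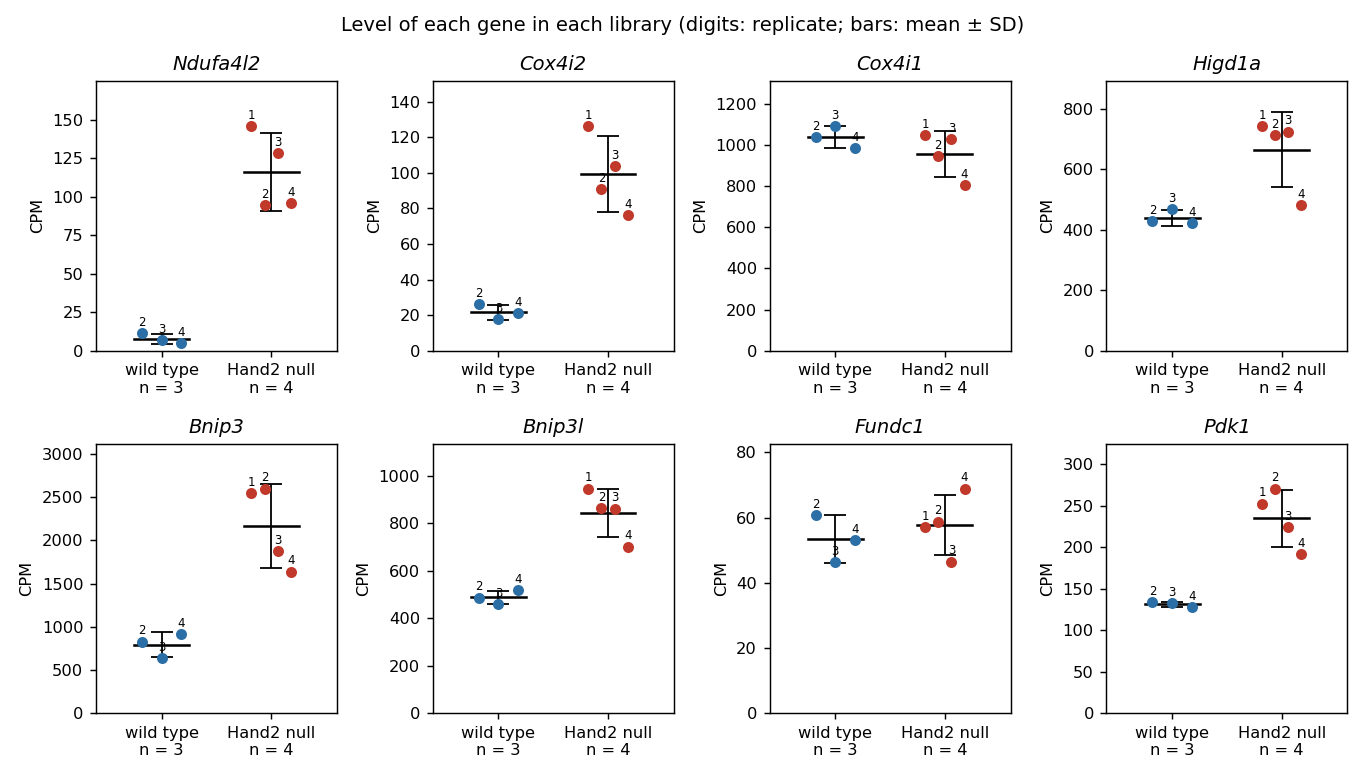
Level of each of the 8 genes (CPM, vertical axis from 0) in the 3 wild-type libraries (blue) and the 4 Hand2 null libraries (red), with replicate numbers, means and SD. Groups overlap for Cox4i1 and Fundc1 and do not for the other 6, and null replicate 4 is the lowest null library in 6 of the 8 genes.

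Ndufa4l2 differed most. It stood at 145.8, 94.29, 128.2 and 95.54 CPM in null replicates 1 to 4 and at 11.3, 7.057 and 4.945 CPM in wild-type replicates 2 to 4. The lowest null library was thus far above the highest wild-type library. The means were 115.9 ± 25.34 CPM (SD, n = 4) and 7.768 ± 3.237 CPM (SD, n = 3), which makes a log2 difference of 3.88 (SE 0.301), the value in place 18 of all tested genes in order of increase. Its exons share 32 nt with Shmt2 on the other strand in the GENCODE annotation, and the libraries carry no strand.

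Cox4i2, the alternative form of oxidase subunit 4, followed. Its levels were 126.3, 90.79, 103.6 and 76.02 CPM in null replicates 1 to 4, and 26.06, 17.78 and 21.14 CPM in wild-type replicates 2 to 4. No null library came near the wild-type range. The log2 difference was 2.18 (SE 0.212).

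Cox4i1, the common form of the same subunit, did not separate the groups. It was counted at 1048, 944.9, 1028 and 802.7 CPM in the null libraries against 1036, 1091 and 985 CPM in the wild-type ones. The low value belonged to null replicate 4, and the other 3 null libraries lay within or just under the wild-type range. Its log2 difference was -0.13 (SE 0.144).

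Higd1a was 742.4, 711.1, 724.1 and 480.7 CPM in the null libraries and 427.8, 467.4 and 420.3 CPM in the wild-type ones. Null replicates 1 to 3 stood close together, while null replicate 4 lay just above the wild-type libraries. The log2 difference was 0.58 (SE 0.17), and 0.71 without null replicate 4. In GENCODE its exons share 683 nt with an antisense transcript.

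Among the mitophagy receptors, Bnip3 had the highest level and the widest difference. It reached 2551, 2598, 1873 and 1640 CPM in the null libraries and 831.1, 639.4 and 914 CPM in the wild-type ones. Null replicates 1 and 2 were highest, and null replicate 4, the lowest, still lay well above each wild-type library. The means of 2165 ± 481.9 CPM (SD, n = 4) and 794.8 ± 140.8 CPM (SD, n = 3) gave a log2 difference of 1.43 (SE 0.194). An antisense transcript shares 504 nt with its exons in GENCODE.

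Bnip3l, which is also needed to clear mitochondria from maturing red cells, was 946.1, 865.4, 861.9 and 702.5 CPM in the null libraries and 487.6, 459.3 and 517.7 CPM in the wild-type ones. The lowest null library lay well above the highest wild-type library. The log2 difference was 0.77 (SE 0.144), smaller than that of Bnip3.

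Fundc1, the third receptor, was 57.12, 58.79, 46.5 and 68.85 CPM in the null libraries and 60.83, 46.28 and 53.07 CPM in the wild-type ones. Its groups overlapped, and null replicate 4 was here the highest null library. The log2 difference was 0.10 (SE 0.155).

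Pdk1 was 252.8, 270.7, 224.5 and 191.9 CPM in the null libraries and 133.7, 132.5 and 127.9 CPM in the wild-type ones. The wild-type libraries were nearly level and all null libraries stood above them. The log2 difference was 0.82 (SE 0.143).

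Null replicate 4 was the lowest null library in 6 of the 8 genes, against 26.67% of the tested genes. The spread within a group, as SD over mean, was 11.67% to 22.26% in the null and 2.344% to 41.68% in wild type, where Ndufa4l2 was the widest and Pdk1 the narrowest.

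Over the 14 alternative settings, the log2 difference ran from 3.63 to 4.25 for Ndufa4l2, from 2.01 to 2.33 for Cox4i2 and from 1.30 to 1.53 for Bnip3. It ran from 0.74 to 0.90 for Pdk1, from 0.68 to 0.85 for Bnip3l and from 0.47 to 0.71 for Higd1a. Of these settings, 12 called Bnip3l, 12 called Pdk1 and 2 called Higd1a. Bnip3l was not called with wild-type replicate 2 (0.77) or 3 (0.74) left out, nor was Pdk1 with wild-type replicate 2 left out (0.83). Nothing is read from these calls either.

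Levels of different genes were compared as CPM per kilobase of gene model (merged exons of GENCODE M21). In wild type, Cox4i1 was highest of the 8 at 1356 ± 69.6 (SD, n = 3) and ranked 59 among 22825 genes with a length. Bnip3 followed at 428.5 ± 75.92, Bnip3l at 148.8 ± 8.911 and Higd1a at 144.7 ± 8.349, and the last pair did not differ beyond their spread. Cox4i2 (27.49 ± 5.284), Pdk1 (25.34 ± 0.5939) and Fundc1 (23.18 ± 3.16) also lay within each other's spread. Ndufa4l2 was lowest at 8.317 ± 3.466 and ranked 5129.

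In the null the order was changed. Cox4i1 (1250 ± 145.9) and Bnip3 (1167 ± 259.8, rank 71 against 226 in wild type) lay within each other's spread, followed by Bnip3l at 257.3 ± 31.1 and Higd1a at 219.3 ± 40.68, whose ranges overlapped although Bnip3l was the higher of the pair within each of the 4 libraries. Cox4i2 (125.9 ± 27.05) and Ndufa4l2 (124.1 ± 27.13) came next and were as high as each other within their spread, with ranks 647 and 657. Pdk1 stood at 45.32 ± 6.642 and Fundc1 was lowest at 25.09 ± 3.973 (SD, n = 4 for the null values). Gene model lengths run from 765 nt for Cox4i1 to 5185 nt for Pdk1, and a model longer than the transcript used in this tissue lowers the value per kilobase.

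**Figure D2:**
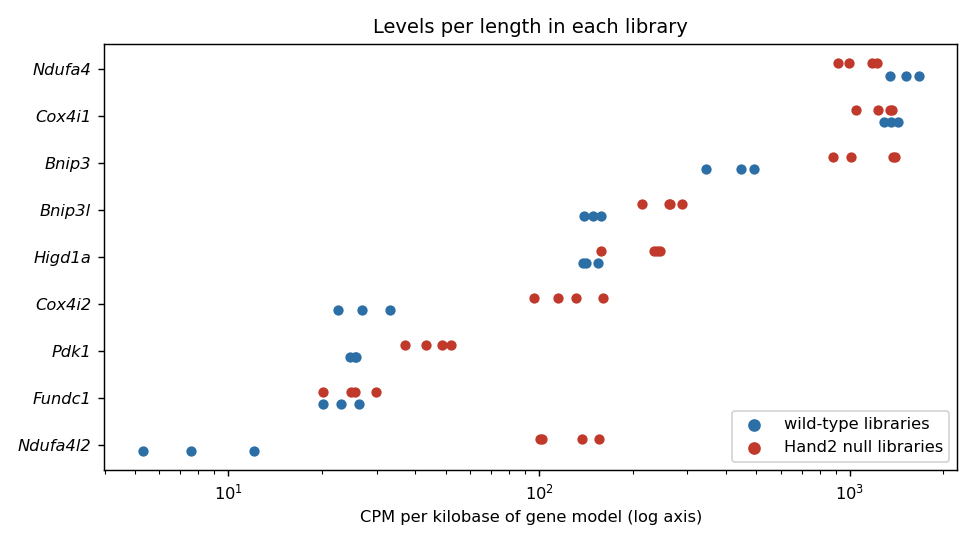
CPM per kilobase of gene model (log axis) of the 8 genes and Ndufa4 in each wild-type (blue) and Hand2 null (red) library, ordered by the wild-type mean. Ndufa4l2 moves from the bottom of the order in wild type (5.295 to 12.1) to the range of Cox4i2 in the null (100.9 to 156.1).

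The alternative subunits stayed the minor form in both groups. Per 100 units of Cox4i1, Cox4i2 stood at 11.7, 9.327, 9.783 and 9.193 in null replicates 1 to 4, and at 2.443, 1.581 and 2.084 in wild-type replicates 2 to 4. The ratio of the means was 4.91. Per 100 units of Ndufa4, the common relative of Ndufa4l2, the latter stood at 13.27, 10.16, 11.21 and 11.15 in the null and at 0.797, 0.4534 and 0.3925 in wild type, a ratio of the means of 20.9. Neither pair overlapped between the groups. The summed level per kilobase of Cox4i1 and Cox4i2 was 1376 ± 170.8 in the null (SD, n = 4) and 1384 ± 67.5 in wild type (SD, n = 3), so the groups overlapped in the total. That of Ndufa4 and Ndufa4l2 was 1202 ± 170.3 and 1519 ± 160.0, and here too the groups overlapped (null replicate 3 at 1361, wild-type replicate 4 at 1354). Bnip3 stood at 3.842 to 5.308 units per unit of Bnip3l in the null and at 2.462 to 3.122 in wild type.

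**Figure D3:**
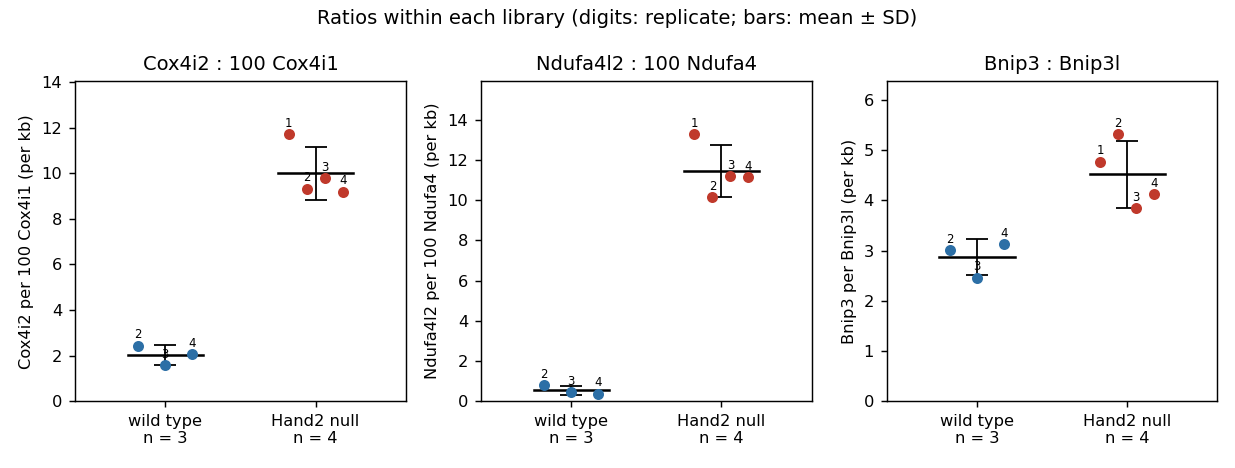
Ratio per kilobase of Cox4i2 to 100 Cox4i1, of Ndufa4l2 to 100 Ndufa4 and of Bnip3 to Bnip3l within each library, with replicate numbers, means and SD. The lowest null library lies above the highest wild-type library in all 3 panels (9.193 against 2.443, 10.16 against 0.797 and 3.842 against 3.122).

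Most other subunits of cytochrome c oxidase had values below 0, without being called. This list, like those below, was chosen with earlier results of these data known, so its counts are described only. Of 15 other tested subunits and close relatives, none was called in either direction by edgeR, 10 were lower and 0 higher at an unadjusted p under 0.05, and DESeq2 called 3 lower. Over all genes tested, 10.9% were lower and 13.5% higher at an unadjusted p under 0.05, and DESeq2 called 5.57% lower and 7.02% higher. The median log2 difference of the 15 genes was -0.42, against 0.02 over all tested genes, and 12 had a value below 0. In 8 of the 15 every null library lay below every wild-type library, against 10.3% of all tested genes. Ndufa4 was 734.2, 620.2, 763.7 and 572.7 CPM in the null libraries and 947.4, 1040 and 841.8 CPM in the wild-type ones (log2 difference -0.50, SE 0.157, edgeR adjusted p = 0.0779). Cox5a, a subunit of the outer ring of the enzyme, was 683.1 ± 115.9 CPM against 937.4 ± 6.506 CPM (SD, n = 4 and 3), with a log2 difference of -0.47 (SE 0.159, edgeR adjusted p = 0.0987). Values above 0 belonged to Cox8b, Cox6b2 and Cox7a2l, which were named after their values were seen, and the last of which is an assembly factor of respiratory supercomplexes. With null replicate 3 omitted 6 subunits were called lower, Ndufa4 among them (-0.58), and with wild-type replicate 4 omitted, 1. Cox7b2, Cox8c and the Ndufa4 relative AA467197 did not pass the filter.

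**Figure D4:**
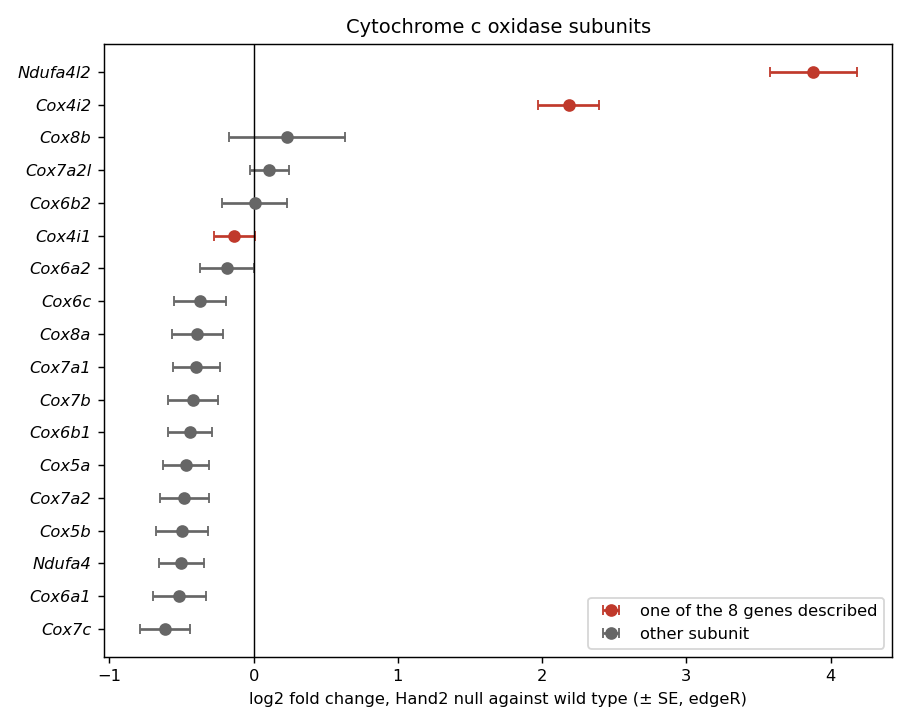
Log2 fold change of Hand2 null against wild type with its SE (edgeR, 4 and 3 libraries) for the tested cytochrome c oxidase subunits and relatives. Cox4i2 (2.18) and Ndufa4l2 (3.88) lie to the right of all others, and Cox4i1 (-0.13) lies between them and most other subunits (median -0.42 of the 15).

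Of factors that act on the subunit 4 switch and of the HIG1 family, none of 5 tested genes was called by edgeR (1 higher and 0 lower at an unadjusted p under 0.05, 1 higher with DESeq2). Over all tested genes edgeR called 4.11% higher and 2.13% lower, so the lack of calls among 5 genes says little. The shares higher were 13.5% at an unadjusted edgeR p under 0.05 and 7.02% with DESeq2. Of the 5 log2 differences, 3 lay above 0 (up to 0.67) and 2 below, those of Chchd2 and Higd2a. Chchd2, which takes part in the transcription of COX4I2, was 256.6 ± 72.09 CPM in null libraries against 314 ± 38.16 CPM in wild type (SD, n = 4 and 3). Higd2a, the relative of Higd1a, was 76.33 ± 8.046 CPM and 92.73 ± 9.726 CPM. Higd1b and Higd1c did not pass the filter.

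Other genes that mark mitochondria for degradation were measured as well. Of 19 other tested receptors and adaptors, 1 was called higher and none lower by edgeR (2 and 2 at an unadjusted p under 0.05, 1 and 2 with DESeq2), with a median log2 difference of 0.15. Over all genes 4.11% were called higher, so 1 of 19 is near the overall share. The called gene was Optn, an adaptor that links ubiquitin on mitochondria to LC3, at 9.293, 11.17, 9.488 and 7.345 CPM in the null libraries and 4.102, 4.22 and 6.02 CPM in the wild-type ones. Its log2 difference was 0.95 (SE 0.22, edgeR adjusted p = 0.0265), and the groups did not overlap. Its call was lost on omission of null replicate 1 (0.92, adjusted p = 0.0764) or null replicate 2 (0.88, 0.0753). The same held for wild-type replicate 2 (0.84, 0.149), for wild-type replicate 3 (0.88, 0.121) and with both null replicate 2 and wild-type replicate 4 left out (1.07, 0.0569). Of 27 core autophagy genes, 1 rose and none fell by edgeR, again near the overall share of edgeR calls. The other counts were 6 higher and 2 lower at an unadjusted edgeR p under 0.05, and 3 and 1 with DESeq2. Over all tested genes these shares were 13.5% and 10.9% unadjusted, and 7.02% and 5.57% with DESeq2. The median was 0.20, with 20 values above 0 and 7 below. The gene called by edgeR was Atg9a, a membrane protein of early autophagosomes, at 33.67 ± 0.7076 CPM against 23.42 ± 2.014 CPM (SD, n = 4 and 3, log2 difference 0.51, SE 0.135, edgeR adjusted p = 0.047). Its call was lost in 11 of the 14 alternatives (adjusted p = 0.0515 to 0.223), among them each single library left out except null replicate 3. Of 14 genes of mitochondrial fission and fusion, none was called by edgeR or DESeq2 (0 higher and 1 lower at an unadjusted p under 0.05). The protease gene Yme1l1 was 309.6 ± 46.39 CPM in the null libraries and 310.6 ± 39.22 CPM in the wild-type ones, and the fission gene Fis1 was 176.2 ± 4.614 CPM and 201.2 ± 23.11 CPM (SD, n = 4 and 3).

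Around Pdk1, 1 of 13 other tested genes of pyruvate entry and pyruvate dehydrogenase rose and none fell by edgeR (2 and 1 at an unadjusted p under 0.05, 1 and 0 with DESeq2), with a median log2 difference of 0.04. The share called higher by edgeR over all tested genes was 4.11%. The gene that rose was Pdk4, another of the 4 pyruvate dehydrogenase kinases, at 16.87, 17.08, 13.71 and 16.62 CPM in the null libraries and 5.684, 6.226 and 10.64 CPM in the wild-type ones. All null libraries were above the wild-type libraries (log2 difference 1.08, SE 0.226, edgeR adjusted p = 0.0162). Omission of null replicate 1 ended the call (1.03, adjusted p = 0.0589). Among the wild-type libraries, that of replicate 2 (0.91, 0.1) and that of replicate 3 (0.98, 0.0894) did so too.

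Of 10 genes of oxygen sensing, 4 rose and none fell by edgeR (5 and 1 at an unadjusted p under 0.05, 5 and 1 with DESeq2), with a median log2 difference of 0.42. Over all tested genes, 4.11% were called higher by edgeR, 13.5% were higher at an unadjusted p under 0.05 and 7.02% with DESeq2. The list was chosen with earlier results of these data known, so nothing is read from its count. Egln3, a prolyl hydroxylase that marks HIF for degradation, was 25.25, 15.31, 31.05 and 11.27 CPM in the null libraries and 2.898, 2.664 and 2.293 CPM in the wild-type ones (log2 difference 2.97, SE 0.356, edgeR adjusted p = 0.000681). As for Bnip3, Cox4i2 and Pdk1, null replicate 4 was its lowest null library. Epas1, which encodes HIF-2 alpha, had a log2 difference of 1.11 (SE 0.213, edgeR adjusted p = 0.0107), the hydroxylase gene Egln1 1.10 (SE 0.244, 0.0212) and Hif3a 0.83 (SE 0.212, 0.0409). Each of these 3 lost its call without wild-type replicate 2 (adjusted p = 0.0655, 0.102 and 0.178). Egln1 also lost it on omission of null replicate 1, null replicate 2 or any wild-type library (adjusted p = 0.054 to 0.102), and Hif3a on omission of null replicate 1, null replicate 2 or wild-type replicate 3 (0.0971 to 0.172).

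Genes that follow the amount of mitochondria were taken from a list of porins, import proteins, respiratory chain and matrix enzymes and their transcription factors. Of its 23 tested genes, none rose and 1 fell by edgeR (3 and 3 at an unadjusted p under 0.05, 0 and 2 with DESeq2), with a median log2 difference of 0.02. Among all tested genes the edgeR shares were 4.11% higher and 2.13% lower. The gene that fell was Cycs, cytochrome c, the electron carrier to the oxidase, at 2126, 1785, 1761 and 2012 CPM in the null libraries against 2923, 3283 and 2894 CPM in the wild-type ones (log2 difference -0.68, SE 0.138, edgeR adjusted p = 0.0148). The groups did not overlap. Its call was lost without wild-type replicate 2 (-0.71, adjusted p = 0.0698) or 3 (-0.60, 0.0962).

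**Figure D5:**
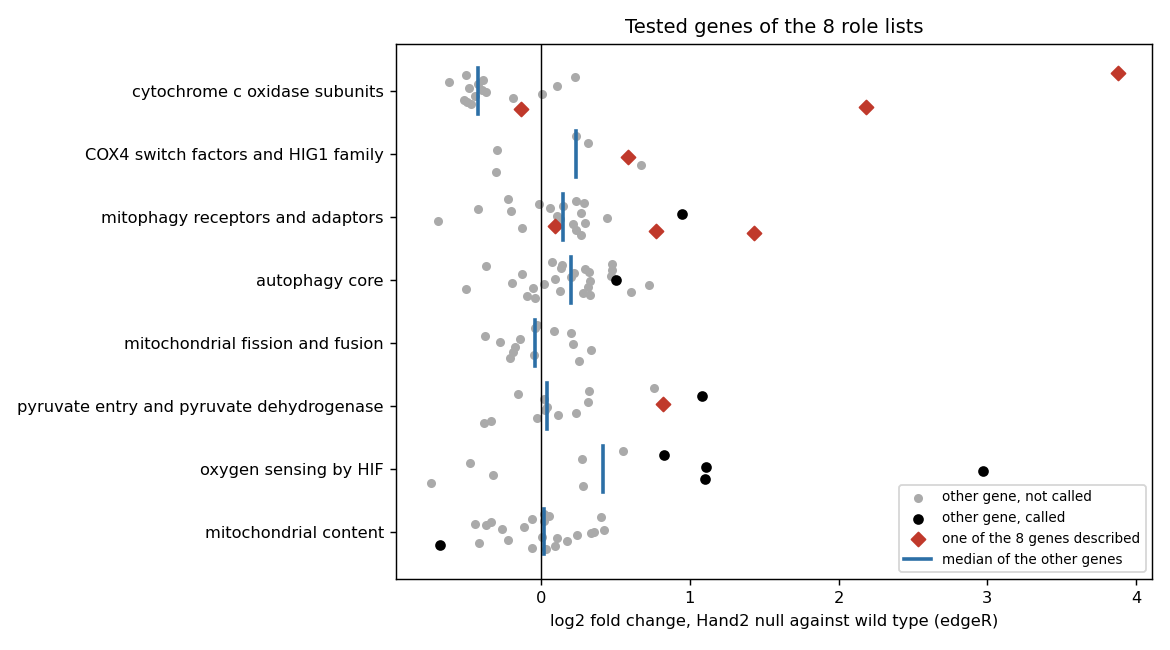
Log2 fold change of Hand2 null against wild type (edgeR) for every tested gene of the 8 role lists, with the 8 genes described as red diamonds, other called genes in black and the median of the others in blue. The medians of the other genes run from -0.42 for the oxidase subunits to 0.42 for oxygen sensing.

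Genes with the pattern nearest to 2 of the 8 were sought over the 7 libraries, by the root mean square difference of log2 CPM after each gene was centred on its own mean. The comparison took in 7982 genes with a mean of at least 10 CPM over all 7 libraries, leaving out predicted genes and small RNAs. Nearest to Ndufa4l2 were Egln3 (difference 0.651 log2 units), the transcription factor gene Bhlhe40 (0.657), Trib3 (0.762), Ier3 (0.774) and Ndrg1 (0.78), against a median of 2.00 over the compared genes. Nearest to Bnip3 were Ctsa, a lysosomal carboxypeptidase, at 0.113, Gys1, the glycogen synthase of muscle, at 0.121, the aldolase gene Aldoc at 0.152, Tpd52 at 0.16 and the syndecan gene Sdc4 at 0.161, against a median of 0.774. These distances describe the 7 libraries and carry no test, and they include the difference between the genotypes. Egln3, Trib3 and Ndrg1 passed the limit of 10 CPM only through the null libraries (wild-type means 2.618, 3.37 and 6.009 CPM).

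Markers of other cells were measured in the same libraries. Beside their counts stand the edgeR shares over all tested genes, 4.11% higher and 2.13% lower. Ndufa4l2 and Cox4i2 are known from pericytes and smooth muscle, and of 9 tested mural genes none rose and 1, Abcc9, fell, while their summed level overlapped between the groups (3279 to 4372 CPM in the null, 2718 to 4050 CPM in wild type for 10 genes). Most of that mural sum was Acta2 (mean 2686 CPM over null libraries against 2611 CPM over wild-type ones), so it says little of the rest. The 9 tested mural genes were split, with 6 log2 differences above 0 and 3 below. Rgs5 (0.52) and Notch3 (0.55) lay above 0, Cspg4 (-0.63) and Abcc9 (-0.63) below it. Kcnj8, which defines pericytes in many tissues, did not pass the filter. Of 9 tested erythroid genes none rose and 1, Klf1, fell, and the 13 genes summed to 5641 to 14600 CPM in the null libraries against 9383 to 22170 CPM in the wild-type ones. All 9 had log2 differences below 0 (median -0.45). At an unadjusted edgeR p under 0.05, 3 were lower, and DESeq2 called 2 lower (10.9% and 5.57% over all tested genes). The adult globin genes of that list, Hba-a1, Hba-a2, Hbb-b1 and Hbb-b2, were at or under 3 reads in every library, with 0 CPM in each. Reads with several alignments are in no gene count, so these values need not mean that the genes were silent. Of 10 endothelial and endocardial genes 5 rose and none fell (476.5 to 537.8 against 317.4 to 365.8 CPM summed). The 5 were Pecam1, Tie1, Kdr, Esam and Cldn5. Not all genes of the list went this way: 8 had log2 differences above 0, while Nfatc1 (-0.09) and Npr3 (-0.18) lay below it. Of 7 tested epicardial genes 1 rose, Krt19 (137.6 to 158.4 CPM summed over 8 genes in wild type, 431.6 to 641.2 CPM in the null), and of 6 tested foregut genes 2 rose, Krt8 and Krt18 (284.4 to 361.8 against 163.1 to 188.4 CPM over 9 genes), while the foregut factors Foxa1, Foxa2 and Shh did not pass the filter. Krt19 made up most of the epicardial sum (mean 473.7 CPM over null libraries against 88.03 CPM over wild-type ones). Nearly all of the foregut sum was Krt8 (161.2 against 98.94 CPM) and Krt18 (168.4 against 75.44 CPM). Both sums thus restate these keratins and say little of the other genes listed. Among the tested epicardial genes, Upk1b (-0.03) and Tcf21 (-0.11) had log2 differences below 0, and 5 lay above it. Of 5 tested macrophage genes 1 rose and 1 fell (8.825 to 13.69 against 12.29 to 14.36 CPM over 9 genes). Among 10 heart muscle genes 1 rose, Myh7. The part of any of these cell types in the values of the 8 genes was not tested.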

How the data were processed

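RNA was measured in 7 pools of dissected canals with RNA integrity numbers of at least 8.5. Per the labels' protocols, ribosomal RNA was removed, cDNA went through 8 PCR cycles, and sequencing gave unstranded single-end reads (50 nt). The deposited values are raw read counts per gene symbol. The tools named are TopHat2 2.0.13, SAMtools and HTSeq, with build mm9, per the submitters' processing notes. How HTSeq was set and which annotation it used is not given in the sources used here. The 5 summary rows were left out. Reads with several alignments (9.08% to 11.64% in the null, 12.22% to 13.81% in wild type) are in no gene count, so genes with near-identical copies are uncertain.

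CPM were computed over gene rows. Genotypes were compared with edgeR 4.0.16 (R 4.3.3, quasi-likelihood test, TMM, minimum count 10, genotype as the only term, 5 residual degrees of freedom), with Benjamini-Hochberg adjustment over all tested genes. Standard errors are the log2 difference over the square root of F. DESeq2 1.42.0 was an alternative. Scripts were tested on simulated data. Lengths came from GENCODE M21 (GRCm38), which matched 20882 symbols directly and 1943 by older names, with 459 unmatched. A count of 3 reads was the floor (0.0669 to 0.1075 CPM) and covers counting error only, since PCR reads are not independent molecules. Pools are separate samples per the labels, and p-values set the difference between genotypes against the spread between pools.

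The 8 genes and all lists were chosen with earlier results of these data known. The rule for names took the 8 genes, Ndufa4, up to 4 called genes of each list (or its 2 most abundant) and the 5 genes nearest to Ndufa4l2 and to Bnip3. Replicate numbers 2 to 4 occur in both genotypes but were not used as pairs in the test.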

Additional observations from a re-analysis of the deposited data

Results flagged for a closer look

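In Higd1a, null replicate 4 stood apart from the other null libraries, at 480.7 CPM against 711.1 to 742.4 CPM. Its gap to the nearest library was 0.88 of the range of the 4 null libraries, above the critical value of Dixon's test for 4 samples. Chance flags about 1 in 20 such groups, and 8 were examined. Without this library the log2 difference of Higd1a was 0.71, against 0.58 with it.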

How the results depend on the processing

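Every value of the 8 genes moved by less than the spread between replicates under all 14 alternatives (112 of 112 values). Of these alternatives, leaving out both null replicate 2 and wild-type replicate 4 was chosen after seeing the data. Leaving out a single library can hardly move a value by more than that spread, so this count says little for those alternatives. By the threshold, calls did change: Bnip3l and Pdk1, called in the main fit, were each called under 12 of the 14 alternatives. Higd1a, not called in the main fit, was called under 2. Among the values of the other named genes, 282 stayed on their side of the threshold, 35 lost their call and 5 gained it, and no called value changed direction. Over all genes, 587 were called higher and 305 lower. These counts were 1003 and 796 with DESeq2, 298 and 123 with both doubted libraries left out, and 210 to 946 and 46 to 652 when each library was left out in turn (284 and 90 for null replicate 1, 389 and 150 for 2, 946 and 652 for 3, and among wild-type replicates 210 and 46 for 2, 246 and 68 for 3). The cause was not tested.

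The number of other oxidase subunits called lower was 0, but 1 with upper-quartile scaling, 3 with DESeq2, and 0 to 6 with single libraries left out. With the replicate block (replicates 2 to 4 of both genotypes) it was 7, and 761 genes were called higher and 578 lower. The block also gave 1 mitophagy gene and 2 content genes called lower. The same-numbered libraries correlated at -0.0733, 0.257 and 0.166 in their deviations from the group means, and wild-type replicates 3 and 4, but not 2, correlated best with the null library of their own number. Since not every pair was above 0.1, the numbers were not used as pairs, and whether pools were paired is not known from the labels. On the same 6 libraries without the block, 284 genes were called higher, 90 lower and 0 oxidase subunits. With the block Ndufa4 was called lower (-0.58), and Hif3a lost its call (0.79, adjusted p = 0.0596), which left 3 oxygen-sensing genes called higher. DESeq2 called 1 gene of the subunit 4 switch list higher, 2 mitophagy genes lower, 3 autophagy genes higher and 1 lower, 1 oxygen-sensing gene lower and 2 content genes lower. No autophagy gene was called higher (0) with RLE or upper-quartile scaling, without the filter, or with both doubted libraries left out, where the mitophagy count was also 0 and that of oxygen sensing 1.

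With single libraries left out, the ranges were 0 to 1 higher and 0 to 1 lower for mitophagy, 0 to 3 higher for autophagy, 0 to 2 higher and 0 to 1 lower for pyruvate entry, 1 to 5 higher and 0 to 1 lower for oxygen sensing, and 0 to 1 higher and 0 to 2 lower for mitochondrial content. Scaling moved the median of all genes by less than 0.1 log2 units. The number of pools limits the precision, with an SE of 0.14 to 0.30 log2 units for the 8 genes.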
